A study of Mus musculus with 116 samples.

Results

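The mast cell and basophil genes followed here are Cpa3, Mcpt8, Fcer1a and Gata2. They were chosen by the symbol that the array platform gives to a probe, and each of these 4 genes has 1 probe among the 21797 tested probes, which carry 15097 symbols. By the RefSeq annotation of GRCm38.p6, Cpa3 lies at chr3:20215616-20242209, Mcpt8 at chr14:56082163-56085499, Fcer1a at chr1:173221269-173227232 and Gata2 at chr6:88193891-88207032. Where a probe lies within its gene was not analysed here.

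FDB1 is a mouse myeloid cell line that needs an added cytokine to grow. RNA was compared on spotted 2-colour arrays between 18 conditions with 2 replicates each, so 36 RNAs in all. FI-Delta and V449E cells are FDB1 cells that express an activated mutant of the beta chain shared by the GM-CSF, IL-3 and IL-5 receptors, and they were left without factor from 0 hours. Parental FDB1 cells were moved to mouse GM-CSF at 500 U/mL. Cells of all 3 lines had first grown in Iscove's medium with 10% fetal calf serum and mouse IL-3 at 500 U/mL, which was removed by 3 washes at 0 hours, and each line was sampled then and after 6, 12 and 24 hours and again after 48 and 72 hours. Parental cells at 0 hours serve as the start of the GM-CSF course. The labels name neither the promoter that drives a mutant nor whether a mutant line is a single clone. They also do not say whether the replicates came from separate cultures, so each p-value here reflects the spread among the deposited samples, which may be technical.

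Each pair of conditions compared was hybridised on 4 arrays, a dye-swap pair for each replicate. The exception is V449E over parental cells at 0 hours, with 8 arrays. The deposited values were read as log2 of Cy5 over Cy3, which is likely, since limma writes that ratio, but stated nowhere in the files. Were the direction the other way, every sign, rank and call below would turn over together, lower for higher, with sizes, p-values and shares as they are. A level is the fitted log2 value of an RNA relative to the mean of the 18 RNAs of its replicate, and levels can be compared between conditions for 1 gene but not between genes. A difference passed when its adjusted p from limma, adjusted over all 21797 probes, was under 0.05. Array intensities were not used here, so these ratios do not show whether the defining markers of mast cells or basophils were present above background. In this bulk RNA, fewer cells that make a transcript and less transcript in each cell cannot be told apart.

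Mast cells and basophils are granulocytes that bind IgE and store proteases in granules bound to heparin or chondroitin sulphate. Cpa3 encodes carboxypeptidase A3, a metalloprotease of mast cell granules that basophils and their precursors also make. Mcpt8 encodes mast cell protease 8, a serine protease that in the mouse is made by basophils. Fcer1a encodes the alpha chain of the high-affinity IgE receptor, the chain that binds IgE. Gata2 encodes a zinc finger transcription factor needed in blood stem cells and progenitors and for the development of mast cells and basophils, and it binds DNA at GATA sequences.

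As one of the 4 genes encodes a GATA factor, the bases before their transcript starts were searched for GATA words (AGATAA with its variant AGATAG, and TGATAA with its variant TGATAG, on either strand). The stretches of Cpa3 and Fcer1a are shown because each holds 1 such word, printed in capitals. They come from the RefSeq promoter table of GRCm38.p6, are written on the strand of the gene (minus for both), and stop where the annotated gene begins, at chr3:20242210-20242431 (222 bases) and chr1:173227233-173227479 (247 bases).
Cpa3: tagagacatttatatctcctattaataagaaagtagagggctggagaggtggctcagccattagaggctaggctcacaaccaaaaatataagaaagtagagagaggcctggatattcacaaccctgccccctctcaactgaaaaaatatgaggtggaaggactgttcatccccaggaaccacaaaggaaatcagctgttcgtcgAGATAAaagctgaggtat
Fcer1a: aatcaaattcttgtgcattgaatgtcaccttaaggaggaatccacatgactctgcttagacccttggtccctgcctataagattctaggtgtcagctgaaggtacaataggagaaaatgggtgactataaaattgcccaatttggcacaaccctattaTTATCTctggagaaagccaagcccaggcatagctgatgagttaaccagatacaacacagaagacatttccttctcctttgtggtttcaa
The word in Cpa3 ends 41 bases before the transcript start used in the table, and the word in Fcer1a ends 87 bases before it. The window of Mcpt8 and both windows of Gata2 (250 bases each) held no GATA word. The window of Mcpt8 and the second of Gata2 had 0 bases before the annotated gene. The bases before the annotated gene of Mcpt8 were thus not searched. Of 32851 windows of 250 bases in the table, 26.5% held at least 1. The E-box word CANNTG matched at 2 places each in Cpa3 and Fcer1a and at 3 places in Mcpt8, and 66.2% of all windows held it. The C/EBP word TTGCNNAA matched once in Fcer1a (9.56% of windows) and the STAT word TTCNNNGAA in none of the 5 windows of these genes (7.02% of windows). No GATA word overlapped another match. A match is a match of letters only.

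All 4 genes were lower after 72 hours in the cells that received GM-CSF and in FI-Delta cells without factor, and none passed the test at any time in V449E cells. At 72 hours in GM-CSF all 4 passed as lower, where 2.55% of all probes did. At 72 hours in FI-Delta cells all 4 passed as lower, where 8.51% of all probes did. The 4 genes were chosen with earlier results of these data known, so such shares are descriptions and not a test of the set. At 48 hours all 4 passed as lower in GM-CSF (0.573% of all probes) and 3 in FI-Delta cells (2.01%). On the arrays of print run 1 alone, Fcer1a was the only 1 of the 4 that still passed at 48 hours in GM-CSF. At 24 hours 1 did in GM-CSF (0.284%) and none in FI-Delta cells (0.509%). At 6 and 12 hours none of the 4 genes passed in FI-Delta cells, where 0.725% and 5.06% of all probes passed either way, or in GM-CSF, where 0.44% and 2.92% did. Of these 16 tests, 1 in FI-Delta cells and 2 in GM-CSF had an unadjusted p under 0.05. So did 2053 and 4110 of all probes at 6 and 12 hours in FI-Delta cells, and 2318 and 3738 in GM-CSF. Over the 5 later times of V449E cells against their own 0 hours, 0 of 20 tests passed, 3 had an unadjusted p under 0.05, and 1 (Mcpt8 at 24 hours) passed in a network fit on the dye-swap pairs. Of all probes 0.702%, 1.28%, 1.45%, 0.00459% and 0% passed either way at these 5 times. Before adjustment 1713, 2467, 2356, 1407 and 933 probes were under 0.05. Over all 28 comparisons of conditions 31 of 112 tests passed, which comprise 8 of 28 for Cpa3, 6 for Mcpt8, 11 for Fcer1a and 6 for Gata2. The share of all probes that passed either way ran from 0% to 16.7% by comparison. These comparisons share RNAs, so the 31 are not separate pieces of evidence.

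**Figure D1:**
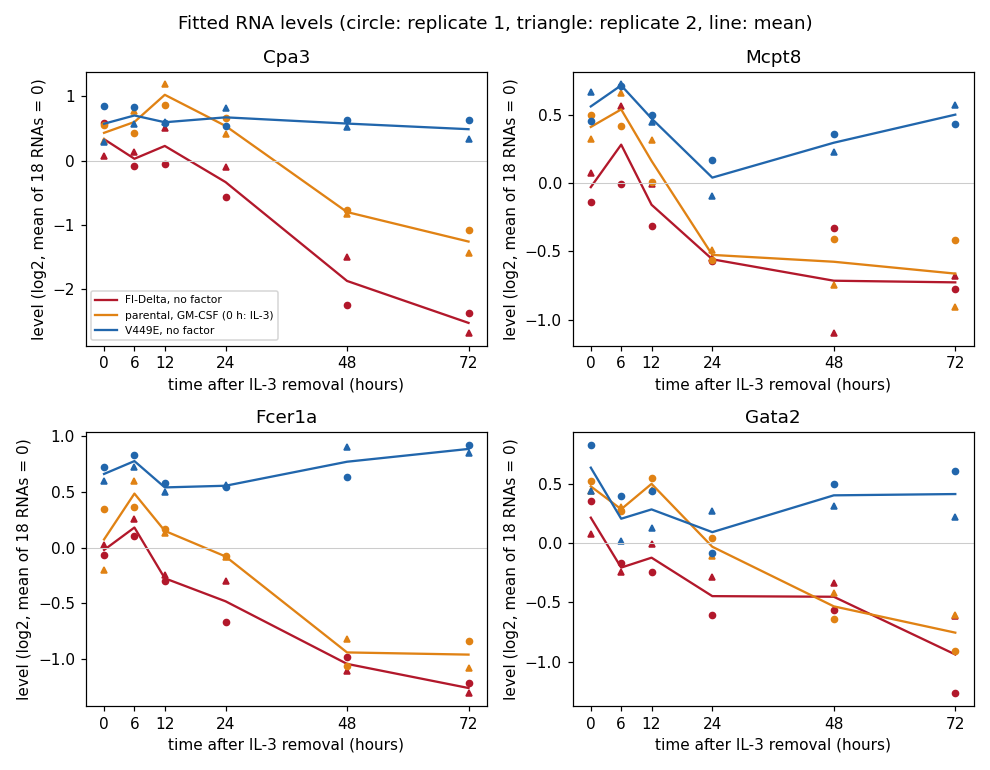
Fitted log2 level of each gene (y axis, mean of the 18 RNAs of a replicate at 0) against hours after IL-3 removal (x axis) for FI-Delta cells without factor, parental cells in GM-CSF and V449E cells without factor; circles are replicate 1, triangles replicate 2 and lines their mean. The condition means span 3.56 for Cpa3, 2.14 for Fcer1a, 1.57 for Gata2 and 1.44 for Mcpt8, and FI-Delta at 72 hours is the lowest mean in each panel.

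The granule protease Cpa3 had the widest range of the 4 genes. Its condition means spanned 3.56 on the log2 scale, against a median gap of 0.31 between the 2 replicates of a condition, and the SE of any difference of 2 conditions was 0.24. In FI-Delta cells its level was 0.59 and 0.08 (replicates 1 and 2) at 0 hours, -0.08 and 0.14 at 6 hours, -0.05 and 0.50 at 12 hours, -0.57 and -0.10 at 24 hours, -2.26 and -1.50 at 48 hours, with -2.37 and -2.69 at 72 hours. Both late times lay below all earlier ones in both replicates, and how many of all probes did so was not counted. The difference from 0 hours was -0.67 at 24 hours (adjusted p = 0.209), -2.21 at 48 hours (adjusted p = 1.1e-05) and -2.87 at 72 hours (adjusted p = 9.42e-08), a 7.29-fold lower level. Of all tested probes, Cpa3 had the second lowest difference there.

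In parental cells moved to GM-CSF, the level of Cpa3 was 0.56 and 0.31 at 0 hours, 0.44 and 0.77 at 6 hours, 0.86 and 1.19 at 12 hours, 0.66 and 0.42 at 24 hours, -0.77 and -0.83 at 48 hours, with -1.09 and -1.44 at 72 hours. Its highest level of all 18 conditions was thus at 12 hours, yet the difference of 0.59 from 0 hours did not pass (adjusted p = 0.194). The 4 arrays of that comparison read -0.23 and 0.35 in replicate 1, on print run 1, and 0.94 and 1.30 in replicate 2, on print run 2. The difference was -1.24 at 48 hours (adjusted p = 0.00788) and -1.70 at 72 hours (adjusted p = 0.000128), a 3.24-fold lower level. The 48-hour call was lost with any of the 4 RNAs left out (-1.28 to -1.07), whereas the 72-hour call was kept under all 9 alternatives. Among these 9, the fit without a replicate block and the network fit leave every difference as it is. They can change a call only through its error.

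Mcpt8, the basophil serine protease, passed as lower in GM-CSF from 24 hours on. Its SE of a difference was 0.20 and its median replicate gap 0.21. In parental cells its level was 0.50 and 0.32 at 0 hours, 0.42 and 0.66 at 6 hours, 0.01 and 0.31 at 12 hours, -0.57 and -0.49 at 24 hours, -0.41 and -0.74 at 48 hours, with -0.42 and -0.91 at 72 hours. From 24 hours on both replicates lay below 0 and below both replicates of the earlier times. The share of all probes with such a separation was not counted. The difference from 0 hours was -0.94 at 24 hours (adjusted p = 0.0192), -0.99 at 48 hours (adjusted p = 0.0115) and -1.07 at 72 hours (adjusted p = 0.00193), a 2.10-fold lower level. It was the only 1 of the 4 genes that passed at 24 hours, and that call was lost with any of the 4 RNAs left out (-1.01 to -0.79). Whether Mcpt8 fell earlier than the other genes was not tested. Without GM-CSF replicate 2 the 72-hour difference was -0.80 (adjusted p = 0.0724) and no longer passed, and the 48-hour difference was lost without parental replicate 1 (-0.86) or GM-CSF replicate 2 (-0.82).

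In FI-Delta cells the level of Mcpt8 was -0.14 and 0.07 at 0 hours, -0.01 and 0.57 at 6 hours, -0.31 and -0.01 at 12 hours, -0.57 and -0.55 at 24 hours, -0.33 and -1.10 at 48 hours, with -0.77 and -0.68 at 72 hours. The replicates stood furthest apart at 48 hours, with a gap of 0.77, and that difference of -0.68 did not pass (adjusted p = 0.0529). At 72 hours the 4 arrays read -0.77, -0.67, -0.76 and -0.58, and the fitted difference of -0.70 passed (adjusted p = 0.0198). It no longer passed with any of the 4 RNAs left out, at -0.76 to -0.62.

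Fcer1a, the IgE-binding chain, had the smallest spread between replicates, with a median gap of 0.12 and an SE of a difference of 0.14. In FI-Delta cells its level was -0.07 and 0.02 at 0 hours, 0.10 and 0.26 at 6 hours, -0.30 and -0.25 at 12 hours, -0.67 and -0.30 at 24 hours, -0.98 and -1.11 at 48 hours, with -1.21 and -1.31 at 72 hours. The 2 RNAs of each later time did not overlap with those of 0 hours, lying above them at 6 hours and below from 12 hours on. How many of all probes did so was not counted. The difference was -1.02 at 48 hours (adjusted p = 0.00016) and -1.24 at 72 hours (adjusted p = 3.42e-06), a 2.36-fold lower level. Single arrays were less even than the fit: at 48 hours the dye-swap pair of replicate 2 read 0.05 and -1.97.

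In parental cells in GM-CSF the level of Fcer1a was 0.34 and -0.20 at 0 hours, 0.37 and 0.60 at 6 hours, 0.17 and 0.13 at 12 hours, -0.07 and -0.09 at 24 hours, -1.06 and -0.82 at 48 hours, with -0.84 and -1.08 at 72 hours. The parental RNAs at 0 hours differed from each other by 0.54, the widest replicate gap of this gene. The difference was -1.01 at 48 hours (adjusted p = 0.000179) and -1.03 at 72 hours (adjusted p = 6.67e-05). At 72 hours it was -0.78 to -1.58 with 1 of the 4 RNAs left out, the last of these without parental replicate 2, and it passed in each case. Without parental replicate 1 the 48-hour difference was -0.76 and no longer passed (adjusted p = 0.0865).

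Gata2, the transcription factor, had a level in FI-Delta cells of 0.35 and 0.07 at 0 hours, -0.17 and -0.25 at 6 hours, -0.24 and -0.01 at 12 hours, -0.61 and -0.29 at 24 hours, -0.57 and -0.34 at 48 hours, with -1.27 and -0.61 at 72 hours. All 10 later RNAs lay below both RNAs of 0 hours, and how many of all probes did so was not counted. The difference was -0.67 at 48 hours (adjusted p = 0.0488, SE 0.19) and -1.15 at 72 hours (adjusted p = 0.000256), a 2.22-fold lower level. The 48-hour call was lost without FI-Delta 0 hours replicate 1 (-0.68) and without either replicate of 48 hours (-0.58 and -0.81), and it was -0.40 on the directly hybridised pairs alone. The 72-hour call was kept under all 9 alternatives, although its 4 arrays ran from -2.26 to -0.15.

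In parental cells in GM-CSF the level of Gata2 was 0.52 and 0.43 at 0 hours, 0.27 and 0.30 at 6 hours, 0.55 and 0.45 at 12 hours, 0.04 and -0.11 at 24 hours, -0.64 and -0.42 at 48 hours, with -0.91 and -0.60 at 72 hours. The difference was -1.01 at 48 hours (adjusted p = 0.00687) and -1.23 at 72 hours (adjusted p = 0.00034), a 2.35-fold lower level. The 72-hour call was lost without parental replicate 2 (-1.08, adjusted p = 0.095). The 48-hour call was lost without parental replicate 1 (-0.77), parental replicate 2 (-0.81) or GM-CSF replicate 1 (-0.87).

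**Figure D2:**
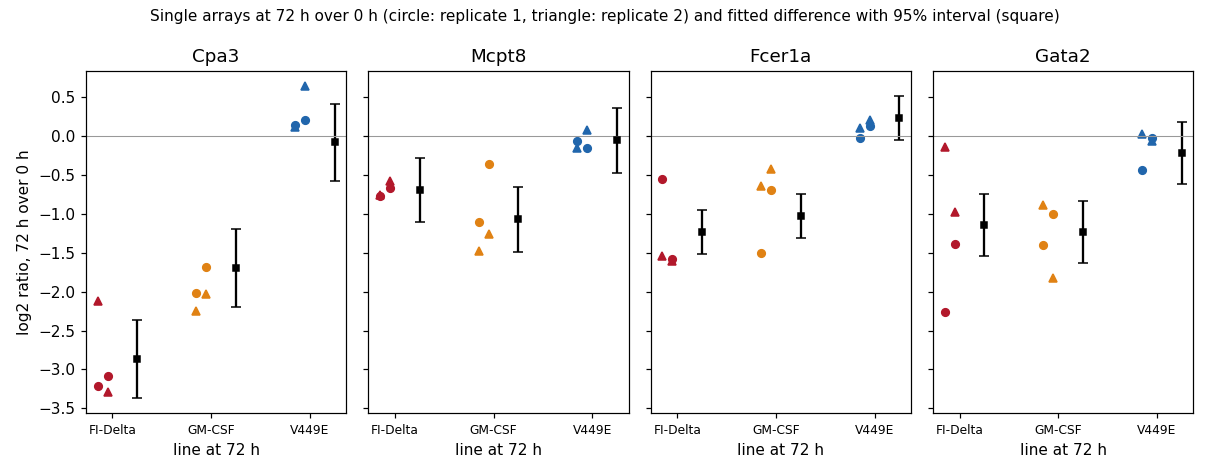
Log2 ratio of 72 hours over 0 hours (y axis) on each array for the FI-Delta, GM-CSF and V449E courses (x axis), with circles for replicate 1, triangles for replicate 2, and a square with its 95% confidence interval for the fitted difference from the whole network of arrays. All arrays of the FI-Delta and GM-CSF courses read below 0 for the 4 genes, and the V449E arrays lie between -0.44 and 0.63.

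Markers of other cell types moved at the same time. Of all probes, 6.75% passed as higher and 8.51% as lower in FI-Delta cells at 72 hours, and 2.92% and 2.55% in GM-CSF. Of 8 neutrophil probes 4 were higher and none lower in FI-Delta cells at 72 hours (median 1.23), 2 and none in GM-CSF (median 0.60), and none passed in V449E cells (median 0.17). Lactoferrin (Ltf) differed by 2.68 in FI-Delta cells and -0.05 in GM-CSF, and the collagenase Mmp8 by 1.47 and 2.20. Of 6 macrophage probes 4 were higher in FI-Delta cells (median 0.94) and 4 in GM-CSF (median 1.01), and none passed in V449E cells (median 0.19). Of 8 erythroid and megakaryocyte probes 2 were higher and 1 lower in FI-Delta cells, and 1 and 2 in GM-CSF. None of 4 eosinophil and 16 lymphoid probes passed in the 3 courses. Of the 11 mast cell marker probes only those of Cpa3 and Fcer1a passed, and of the 5 basophil marker probes those of Mcpt8, Fcer1a and Gata2 did, with Cd200r3 beside them in FI-Delta cells. In V449E over FI-Delta cells at 72 hours, 7 neutrophil probes were lower and none higher (median -2.84), and 3 macrophage probes were lower and 1 higher (median -0.52), where 7.65% of all probes passed as lower and 9.02% as higher. The part of these changes in the falls of the 4 genes was not tested.

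In V449E cells without factor, no difference of the 4 genes from 0 hours passed. Cpa3 was at 0.86 and 0.29 at 0 hours, 0.83 and 0.58 at 6 hours, 0.59 and 0.61 at 12 hours, 0.54 and 0.81 at 24 hours, 0.63 and 0.53 at 48 hours, with 0.64 and 0.34 at 72 hours. Its difference at 72 hours was -0.09, with a 95% confidence interval from -0.58 to 0.41. The 4 arrays that paired these RNAs directly all read above 0, at 0.11 to 0.63. For Fcer1a the 72-hour difference was 0.22 (interval -0.06 to 0.51), with levels of 0.92 and 0.84 at 72 hours against 0.72 and 0.60 at 0 hours. For Mcpt8 it was -0.06 (interval -0.48 to 0.36), with 0.43 and 0.57 at 72 hours against 0.45 and 0.67 at 0 hours. For Gata2 it was -0.22 (interval -0.62 to 0.18), with 0.61 and 0.22 at 72 hours against 0.83 and 0.44 at 0 hours. A test that was not passed does not show that these levels were equal, and these intervals give the size of change that the data allow. At 24 hours, where 0.743% of all probes passed as lower, Mcpt8 was at -0.52 (adjusted p = 0.259) and Gata2 at -0.54 (adjusted p = 0.199). In V449E cells at 72 hours no probe at all passed in limma, with 933 at an unadjusted p under 0.05, and 31 passed on the directly hybridised pairs alone and 31 in the network fit.

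V449E and FI-Delta cells were also compared with each other at every time. At 0 hours both had grown in IL-3, and at the later times neither had an added factor. Fcer1a was higher in V449E cells at all 6 times. The difference was 0.68 at 0 hours (adjusted p = 0.03), 0.60 at 6 hours (adjusted p = 0.0374), 0.81 at 12 hours (adjusted p = 0.00226), 1.04 at 24 hours (adjusted p = 7.02e-05), 1.81 at 48 hours (adjusted p = 2.45e-08) and 2.14 at 72 hours (adjusted p = 3.76e-10), a 4.42-fold higher level. As higher in V449E cells passed 0.115%, 0.376%, 0.436%, 1.47%, 3.69% and 9.02% of all probes at these times, and 7.65% as lower at 72 hours. Fcer1a alone of the 4 genes passed before 24 hours. Its calls at 0 and 6 hours were lost with any of the 4 RNAs left out, at 0.62 to 0.74 and 0.51 to 0.69, and that at 12 hours without FI-Delta replicate 1 (0.78).

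Cpa3 was higher in V449E cells by 0.24 at 0 hours, 0.68 at 6 hours and 0.37 at 12 hours, none of which passed, by 1.01 at 24 hours (adjusted p = 0.0171), by 2.45 at 48 hours (adjusted p = 4.05e-07) and by 3.02 at 72 hours (adjusted p = 9.75e-09), an 8.12-fold higher level. The 4 arrays at 72 hours read 2.12, 3.13, 2.39 and 3.02. Only 2 tested probes had a higher difference there. The 24-hour call was lost without V449E replicate 2 (0.91), without FI-Delta replicate 1 (0.87) and on the directly hybridised pairs alone (0.84). Mcpt8 was higher by 1.01 at 48 hours (adjusted p = 0.00166) and 1.23 at 72 hours (adjusted p = 0.000127). The first of these was 0.67 without FI-Delta 48 hours replicate 2 (adjusted p = 0.0493). Its arrays at 0 hours were even, at 0.62, 0.72, 0.64 and 0.65, yet the fitted 0.59 did not pass (adjusted p = 0.479). Gata2 was higher by 0.85 at 48 hours (adjusted p = 0.00502), a call lost without V449E replicate 1 (0.73) or FI-Delta replicate 1 (0.70), and by 1.35 at 72 hours (adjusted p = 2.52e-05), where the arrays read 1.56 and 2.21 in replicate 1 and 0.44 and 0.81 in replicate 2. All 4 calls at 72 hours were kept under all 9 alternatives.

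**Figure D3:**
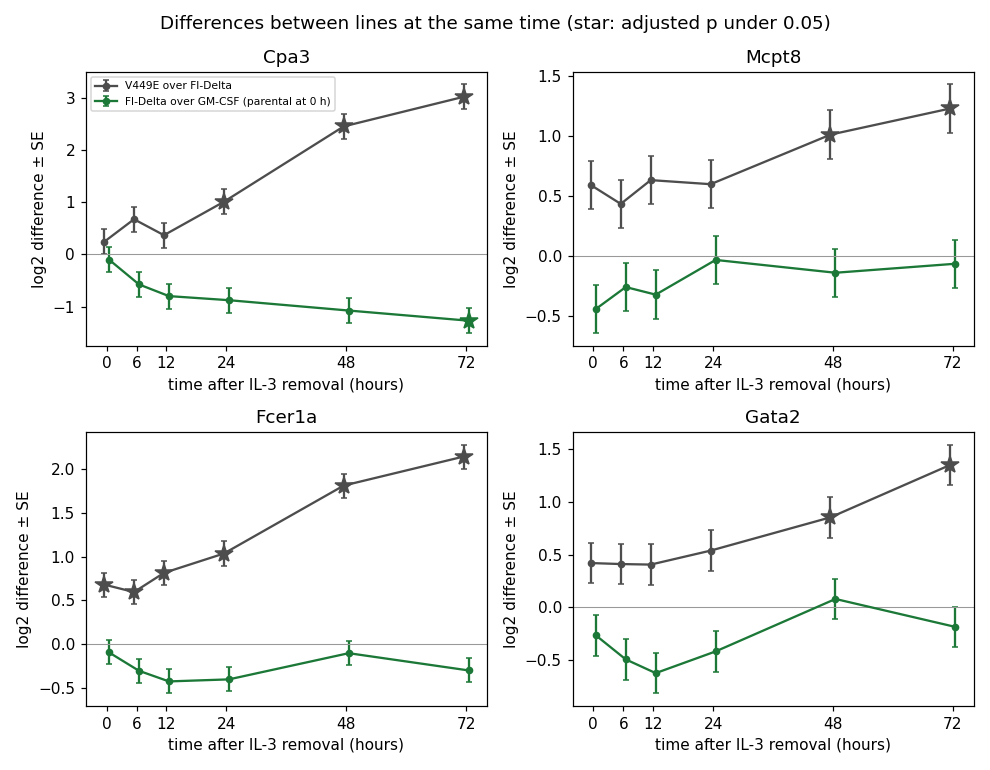
Fitted log2 difference (y axis, bars are ± 1 SE) against hours after IL-3 removal (x axis) for V449E over FI-Delta cells and for FI-Delta over GM-CSF-treated cells (over parental cells at 0 hours); stars mark an adjusted p under 0.05. V449E over FI-Delta reaches 3.02 for Cpa3, 2.14 for Fcer1a, 1.35 for Gata2 and 1.23 for Mcpt8 at 72 hours, and FI-Delta over GM-CSF passes at 1 point, Cpa3 at 72 hours.

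FI-Delta cells without factor and parental cells in GM-CSF, both with low late levels, differed in 1 of 24 tests, with 13 at an unadjusted p under 0.05. At 0, 6, 12, 24 and 48 hours, where none of the 4 genes passed, 0.106%, 0.491%, 0.307%, 0.174% and 0.289% of all probes did either way. At 72 hours Cpa3 was lower in FI-Delta cells, with a difference of -1.27 (adjusted p = 0.00929; 0.372% of all probes passed as lower). The 4 arrays read -1.59 and -1.40 in replicate 1, on print run 1, and -1.41 and -1.87 in replicate 2, on print run 2. The call was lost without GM-CSF replicate 1 (-1.01), FI-Delta replicate 1 (-1.32) or FI-Delta replicate 2 (-0.88). At earlier times the difference of Cpa3 was -0.10 at 0 hours, -0.57 at 6 hours, -0.80 at 12 hours, -0.88 at 24 hours and -1.07 at 48 hours (adjusted p = 0.0507). Fcer1a was at -0.30, -0.43 and -0.40 at 6, 12 and 24 hours, and at -0.10 at 48 hours. Gata2 was at -0.49, -0.62 and -0.42, and at 0.08 at 48 hours. Mcpt8 was at -0.26, -0.32 and -0.03, and at -0.14 at 48 hours. At 72 hours the differences of the other genes were -0.30 for Fcer1a (interval -0.58 to -0.02), -0.18 for Gata2 (interval -0.58 to 0.21) and -0.06 for Mcpt8 (interval -0.48 to 0.35).

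At 0 hours V449E cells were also compared with parental cells on 8 arrays. Fcer1a was higher in V449E cells by 0.59 (adjusted p = 0.0435), where 0.463% of all probes passed as higher, and the other 3 genes did not pass (0.14 for Cpa3, 0.15 for Mcpt8 and 0.16 for Gata2). Its arrays read 0.10 and -0.18 on print run 1 and 0.14 and 0.50 on print run 2 in replicate 1. In replicate 2 they read 0.83 and 0.82 on print run 1 and 0.54 and 0.57 on print run 2. The difference was 0.34 without parental replicate 2 and 0.94 without parental replicate 1, and it no longer passed without parental replicate 2 or without either V449E RNA (0.59 and 0.68). On the arrays of print run 1 alone it was 0.61 (adjusted p = 0.0544). FI-Delta cells at 0 hours did not pass against parental cells for any of the 4 genes, with -0.44 for Mcpt8 the largest by size and the only one with an unadjusted p under 0.05.

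Differences between the responses of the lines, each from its own 0 hours, were tested directly at 24 and 72 hours. At 72 hours the response of FI-Delta cells minus that of V449E cells was -2.78 for Cpa3 (SE 0.34, adjusted p = 8.9e-05) and -1.46 for Fcer1a (SE 0.19, adjusted p = 0.000168), where 2.18% of all probes passed as lower. It was -0.93 for Gata2 (adjusted p = 0.0582) and -0.64 for Mcpt8 (adjusted p = 0.248), so that a smaller fall of these genes in V449E cells was not shown. The response to GM-CSF minus that of V449E cells was -1.61 for Cpa3 (adjusted p = 0.0222) and -1.26 for Fcer1a (adjusted p = 0.00157), where 0.317% of all probes passed as lower. It was -1.01 for both Gata2 (adjusted p = 0.113) and Mcpt8 (adjusted p = 0.138). The Fcer1a value was -0.97 without parental replicate 1 (adjusted p = 0.0857), and the Cpa3 call was lost under 6 of the 8 omissions of 1 RNA, at -1.72 to -1.12. The response of FI-Delta cells minus that to GM-CSF passed for none of the 4 genes, with Cpa3 at -1.17 (unadjusted p = 0.0022, adjusted p = 0.669) the only gene under 0.05 before adjustment, and 0.00459% of all probes passed either way. At 24 hours no difference of responses passed for these genes, 2 of 12 had an unadjusted p under 0.05, and of all probes 0.00918% passed for FI-Delta minus V449E, 0.0459% for GM-CSF minus V449E and 0% for FI-Delta minus GM-CSF.

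Ordered over the 18 conditions, FI-Delta at 72 hours had the lowest mean level for each of the 4 genes, at -2.53 for Cpa3, -1.26 for Fcer1a, -0.94 for Gata2 and -0.73 for Mcpt8. The highest mean was that of GM-CSF at 12 hours for Cpa3 (1.03), V449E at 6 hours for Mcpt8 (0.71), V449E at 72 hours for Fcer1a (0.88) and V449E at 0 hours for Gata2 (0.63). The 6 V449E conditions held the 6 highest means of Fcer1a, from 0.54 to 0.88. Most neighbours in these orders could not be separated. A gap between neighbours exceeded 2 SE of a difference at 2 places for Cpa3, below GM-CSF 72 hours (-1.26) and below FI-Delta 48 hours (-1.88), at 2 places for Fcer1a, below GM-CSF 6 hours (0.48) and below FI-Delta 24 hours (-0.48), and nowhere for Mcpt8 and Gata2. The means of the 4 genes correlated over the 18 conditions at r = 0.77 (Cpa3 and Mcpt8) to 0.91 (Mcpt8 and Fcer1a). These are descriptions: the points share lines, courses and arrays.

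The genes with the most similar pattern were sought among 673 probes with 1 symbol whose condition means span at least 1 on the log2 scale. For Cpa3 they were Nrgn, neurogranin (r = 0.97 over 18 conditions), Gtf2e1, a subunit of the general transcription factor TFIIE (0.97), and Sox4, an HMG-box transcription factor (0.96). For Mcpt8 they were Il18r1, a chain of the IL-18 receptor (0.95), Tax1bp1 (0.95) and 5430427O19Rik (0.94). For Fcer1a they were H2-Eb1 and H2-Aa (both 0.98) and a probe named Tcrb-V8.2 (0.97), a symbol that the platform gives to 151 probes. H2-Eb1 encodes the beta chain of I-E and H2-Aa the alpha chain of I-A, which are MHC class II molecules. H2-Aa has 2 probes, and its value is for 1 of them. For Gata2 they were Rab27b, a GTPase of secretory granules (0.94), Fut8, a fucosyltransferase (0.94), and Ppp1r14bl (0.93). Rab27b differed from 0 hours at 72 hours by -2.28 in FI-Delta cells, -2.05 in GM-CSF and 0.12 in V449E cells. H2-Eb1 differed by -1.58, -0.96 and 0.02.

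The other genes of mast cells and basophils were followed in 5 lists, which hold 94 probes beside those of the 4 genes. At 72 hours 13 of these passed as lower in FI-Delta cells (13.8%, against 8.51% of all probes) and 6 in GM-CSF (6.38%, against 2.55%). As higher passed 10 in FI-Delta cells (10.6%, against 6.75% of all probes) and 11 in GM-CSF (11.7%, against 2.92%). These shares are descriptions, with no test of the lists. Of 15 probes for granule proteases and granule core genes, 3 passed as lower and none as higher both in FI-Delta cells and in GM-CSF, and they were Cpa3, Mcpt8 and Ndst2, an enzyme of heparin synthesis (-0.25 in FI-Delta cells and -0.28 in GM-CSF). The median of the list was -0.05 in FI-Delta cells and -0.06 in GM-CSF, beside 0.00 and 0.01 over all probes. Values that did not pass include those of the mast cell chymase Cma1 (0.34 and -0.09) and the tryptase Tpsb2 (0.15 and 0.17). In V449E cells no probe of any of the 5 lists passed.

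The IgE receptor list held 18 probes for 16 genes, of which 2 passed as higher and 4 as lower in FI-Delta cells, and 4 and 2 in GM-CSF (medians -0.03 and -0.08), beside 6.75% higher and 8.51% lower of all probes in FI-Delta cells, and 2.92% and 2.55% in GM-CSF. The RNAs of the receptor chains did not move together. Fcer1g, the signalling gamma chain that Fc receptors share, was higher by 0.51 in FI-Delta cells (adjusted p = 0.0416) and 0.72 in GM-CSF (adjusted p = 0.0106). RNA of the alpha chain Fcer1a was lower in both, and the receptor protein was not measured. Ms4a2, the beta chain, was at 0.00 in FI-Delta cells and -0.15 in GM-CSF, and neither passed. Cd200r3, a basophil and mast cell receptor, was lower in FI-Delta cells (-0.57) and at -0.31 in GM-CSF, which did not pass. The adaptor Lat was lower in GM-CSF (-0.55) and at -0.31 in FI-Delta cells, which did not pass.

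Of 16 mediator probes 3 passed as higher and 1 as lower in FI-Delta cells, and 2 and 0 in GM-CSF (medians 0.21 and 0.15). For this list and the receptors below, the shares of all probes were 6.75% higher and 8.51% lower in FI-Delta cells, and 2.92% and 2.55% in GM-CSF. The cytokine gene Tnf was higher by 0.57 in FI-Delta cells and 0.62 in GM-CSF, Alox5ap, which serves leukotriene synthesis, by 0.47 and 0.55, and the cyclooxygenase Ptgs2 by 0.42 in FI-Delta cells, with 0.18 in GM-CSF, which did not pass. Of 21 receptor probes for 18 genes 4 passed as higher and 3 as lower in FI-Delta cells, and 3 and 1 in GM-CSF (medians -0.01 and -0.04). Csf2ra, the GM-CSF-binding receptor chain, was higher by 0.89 in both courses, as was Cd44, an adhesion receptor, by 0.68 and 0.70 on its 2 probes in FI-Delta cells and 0.69 and 0.64 in GM-CSF. Itga2b, an integrin chain of megakaryocytes and progenitors, was lower, at -1.15 in FI-Delta cells and -0.89 in GM-CSF, and the progenitor antigen Cd34 (-1.21) and the receptor Cd244a (-0.90) were lower in FI-Delta cells, with -0.21 and -0.32 in GM-CSF, which did not pass. Kit, the receptor of stem cell factor and a defining gene of mast cells, was at -0.07 in FI-Delta cells and did not pass there (adjusted p = 0.831) or in GM-CSF (adjusted p = 0.999).

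Of 28 probes for 23 genes that act with or against Gata2, 1 passed as higher and 6 as lower in FI-Delta cells, and 2 and 4 in GM-CSF (medians -0.01 and -0.03). The 28 include the probe of Gata2 itself. The shares of all probes were 6.75% higher and 8.51% lower in FI-Delta cells, and 2.92% and 2.55% in GM-CSF. Cbfa2t3, a corepressor found in complexes with GATA factors, was lower, at -1.38 in FI-Delta cells and -0.93 in GM-CSF, and Myb, a progenitor transcription factor, at -0.85 and -0.88. Cebpb, a factor of myeloid differentiation, was higher by 1.03 in GM-CSF and at 0.31 in FI-Delta cells, which did not pass. No probe for Gata1 (-0.03 and -0.09) or for the mast cell factor Mitf (4 probes) passed in either course.

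**Figure D4:**
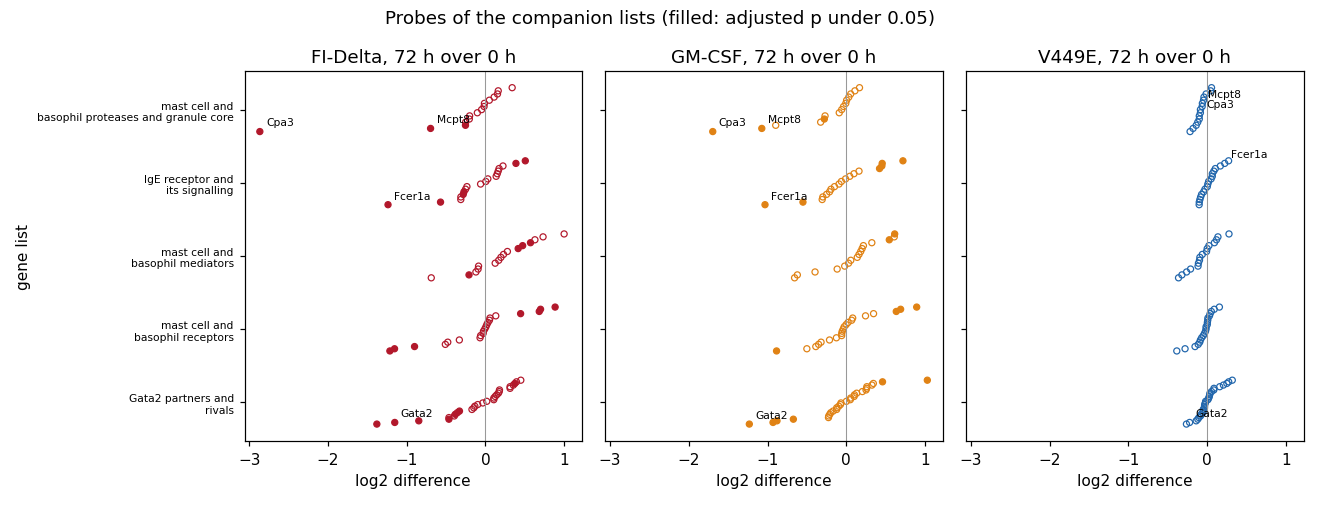
Log2 difference at 72 hours from 0 hours (x axis) of each probe in the 5 lists (rows) in FI-Delta, GM-CSF and V449E cells; filled points have an adjusted p under 0.05 and the 4 genes are named. Cpa3 is the furthest point to the left in the FI-Delta panel at -2.87 and in the GM-CSF panel at -1.70, and no point is filled for V449E cells.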

How the data were processed

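The authors deposited normalised log ratios of 116 arrays, read here as log2 of Cy5 over Cy3. The sample descriptions say that the authors normalised the arrays and brought the spots of print run 1 (90 arrays) and print run 2 (26 arrays) into 1 order, and the submitters' processing notes name limma. The log base, direction, background correction and normalisation method used are not given in the sources used here. Of 23040 spots, 1243 controls were left out. Symbols came from the platform annotation: 16651 tested probes had 1 symbol, 137 several and 5009 none. The members and lists were chosen with earlier results of these data known.

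The 2 arrays of each of 58 dye-swap pairs were averaged, and least squares within a replicate gave a level for each of its 18 RNAs. For the 36 levels, 2-sided tests came from lmFit and eBayes of limma 3.58.1 in R 4.3.3, with replicate number as a block, since every array holds RNAs of 1 replicate number, and Benjamini-Hochberg adjustment over 21797 probes within a comparison. There were 17 residual and 5.99 prior degrees of freedom. The fit was tested on simulated data. Print run 2 holds all replicate 2 arrays of the GM-CSF course and of FI-Delta against GM-CSF or parental cells, so print run and replicate cannot be told apart there. Array medians ran from -0.016 to 0.011. Dye-swap arrays correlated across probes at -0.65 to -0.03.

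Named genes were the 4 genes, the 3 symbols nearest to each in pattern, and of each companion list up to 3 symbols with the largest difference among those that passed in each 72-hour course. Other names were chosen after their values were seen. The lists cover granule proteases, the IgE receptor, mediators, receptors and Gata2 partners, and markers of mast cells, basophils, neutrophils, macrophages, eosinophils, erythroid cells and megakaryocytes, and lymphoid cells. Alternatives were no replicate block, 1 network fit on the dye-swap pairs, directly hybridised pairs only, arrays scaled to 1 spread, print run 1 only, and leaving out each RNA in turn. Without the block and in the network fit the differences equal those of the main fit. These alternatives could thus alter the error of a difference but not its size.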

Additional observations from a re-analysis of the deposited data

Results flagged for a closer look

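At 72 hours the response of FI-Delta cells minus that of V449E cells differed in a test of the difference itself for Cpa3 (-2.78, SE 0.34, adjusted p = 8.9e-05) and for Fcer1a (-1.46, SE 0.19, adjusted p = 0.000168). The response to GM-CSF minus that of V449E cells differed likewise for Cpa3 (-1.61, SE 0.34, adjusted p = 0.0222) and for Fcer1a (-1.26, SE 0.19, adjusted p = 0.00157).

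Single arrays stood apart from the others of their comparison in 3 of 112 sets, and chance alone would give about 1 in 20. For Fcer1a at 72 hours over 0 hours in FI-Delta cells, the replicate 1 array with the 72-hour RNA in Cy3 read -0.56, while the others read -1.61 to -1.55. For Gata2 in FI-Delta cells over GM-CSF at 12 hours, the replicate 1 array with FI-Delta RNA in Cy5 read -1.07, while the others read -0.65 to -0.60. For Mcpt8 at 24 hours in GM-CSF over parental cells, the replicate 2 array with GM-CSF RNA in Cy5 read -0.56, while the others read -1.16 to -1.08.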

How the results depend on the processing

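Every call of Cpa3, Fcer1a, Gata2 and Mcpt8 kept its direction under the alternatives run: of 1296 alternative values for 136 results, 1165 had the same direction and side of the threshold or moved by under 1 SE, 73 lost a call, 33 gained one and 25 uncalled values moved further. Sign changes occurred among uncalled values only, in 38 results, the largest such value being 0.38 by size. With arrays scaled to 1 spread, calls were lost for Cpa3 in FI-Delta over GM-CSF at 72 hours (-1.07) and in the GM-CSF minus V449E response (-1.38), for Fcer1a in V449E over parental at 0 hours (0.54) for Mcpt8 in FI-Delta at 72 hours (-0.53), for Fcer1a in V449E over FI-Delta at 0 and 6 hours (0.68 and 0.63) and for Gata2 in FI-Delta at 48 hours (-0.61), and 1 was gained, for Cpa3 in FI-Delta over GM-CSF at 48 hours (-1.13). With print run 1 only, where GM-CSF has 1 RNA that is assumed to vary like the other groups, calls were lost for Cpa3 in FI-Delta over GM-CSF (-1.35) and in the GM-CSF minus V449E response (-1.54), for Fcer1a in V449E over parental (0.61) and in the GM-CSF minus V449E response (-1.09), and for Mcpt8 in FI-Delta (-0.65) and in GM-CSF (-0.73) at 72 hours. The other 8 lost there were those of Cpa3 (-1.24), Gata2 (-0.96) and Mcpt8 (-0.72) in GM-CSF at 48 hours, Mcpt8 in GM-CSF at 24 hours (-0.88), Gata2 at 48 hours in FI-Delta (-0.56) and in V449E over FI-Delta (0.77), and Fcer1a in V449E over FI-Delta at 0 and 6 hours (0.70 and 0.59). Gata2 in FI-Delta over GM-CSF moved to 0.056. On direct pairs only, calls were lost for Cpa3 in V449E over FI-Delta at 24 hours (0.84), Fcer1a in V449E over FI-Delta at 6 hours (0.59) and Gata2 in FI-Delta at 48 hours (-0.40). There 3 were gained, for Cpa3 in FI-Delta over GM-CSF at 48 hours (-1.20), Gata2 in FI-Delta at 24 hours (-0.81) and Mcpt8 in FI-Delta at 48 hours (-0.73), and Cpa3 at 72 hours in V449E cells moved to 0.27. The network fit, which takes pairs of arrays and not RNAs as the unit of error, gained 21 calls and lost none, the gains among the responses at 72 hours being Cpa3 in FI-Delta minus GM-CSF (-1.17), Gata2 in FI-Delta minus V449E (-0.93) and GM-CSF minus V449E (-1.01), and Mcpt8 in the same differences (-0.64 and -1.01). Levels are centred within a replicate, so leaving out the replicate block changes no difference and only raises the residual degrees of freedom. Without it the Gata2 response of FI-Delta minus V449E gained a call (-0.93, adjusted p = 0.0455). Calls were also gained for Cpa3 in FI-Delta over GM-CSF at 48 hours (-1.07, adjusted p = 0.0358) and Mcpt8 in FI-Delta at 48 hours (-0.68, adjusted p = 0.0417). No call of these genes was lost without the block. Leaving out 1 RNA at a time gave, for Cpa3, -1.32 to -0.88 in FI-Delta over GM-CSF at 72 hours, -0.24 to 0.41 in V449E over parental at 0 hours and -1.81 to -1.12 in the GM-CSF minus V449E response. For Fcer1a it gave 0.34 to 0.94 in V449E over parental, -0.46 to 0.23 in the FI-Delta minus GM-CSF response and -1.74 to -0.97 in the GM-CSF minus V449E response. For Gata2 it gave -0.42 to 0.087 in FI-Delta over GM-CSF, -1.37 to -1.08 in GM-CSF, -0.054 to 0.28 in V449E over parental, -0.56 to 0.0033 in V449E cells at 72 hours, -1.39 to -0.55 in the FI-Delta minus V449E response and -1.23 to -0.73 in the GM-CSF minus V449E response. For Mcpt8 it gave -0.76 to -0.62 in FI-Delta cells and -1.35 to -0.80 in GM-CSF. An omission leaves 1 RNA in a condition, assumed to vary like the others, and fewer residual degrees of freedom. For the alternatives other than these omissions and the fit without the block, the cause was not tested.

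Of all probes, 1192 passed at 72 hours in GM-CSF (2878 in the network fit, 748 with scaled arrays, 411 to 749 with 1 RNA left out), 3326 in FI-Delta cells (6533, 1589 and 1053 to 2346), 3634 in V449E over FI-Delta cells (6044, 1952 and 2076 to 2641) and 0 in V449E cells (31, 0 and 0 to 47). Averaging several probes of a gene did not apply, since each gene has 1. Signal over background is unknown here, since no intensities were used, so how far dim spots narrow these ratios was not analysed.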

Other observations

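At 72 hours, when V449E cells were compared with FI-Delta cells, 7 of 16 mediator probes of mast cells and basophils were lower in V449E cells, 1 was higher and 8 did not pass, where 7.65% and 9.02% of all probes passed in these directions, and the median was -0.35. In the same comparison 7 of 8 neutrophil marker probes were lower, with a median of -2.84, and the part of these in the mediator values was not tested. The genes named here were chosen after their values were seen. The chemokine gene Ccl3 was lower, at -1.83 (SE 0.58, adjusted p = 0.0328) and Ccl4 at -1.48 (SE 0.47, adjusted p = 0.0321). Tnf was lower, at -1.02 (SE 0.18), the cyclooxygenase Ptgs2 at -0.64 (SE 0.11), the leukotriene synthase Ltc4s at -0.51 (SE 0.12) and the cytokine gene Il13 at -0.42 (SE 0.10). Tph1, the enzyme that starts serotonin synthesis, was the 1 higher, at 0.21 (SE 0.06).

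The protease and granule core list had 4 of 15 probes higher in V449E than in FI-Delta cells at 72 hours and none lower. Of all probes 9.02% passed as higher there and 7.65% as lower. The 4 were Cpa3, Mcpt8, Ndst2 at 0.47 (SE 0.07) and Srgn, the core protein of granule proteoglycans, at 0.38 (SE 0.11). Without Cpa3 and Mcpt8 the count was 2 of 13 probes. The receptor list had 6 higher and 4 lower of 21 probes in the same comparison, beside the same shares of all probes. Among the higher were Cd34 at 1.34 (SE 0.19), Itga2b at 1.14 (SE 0.15), Il18r1 at 1.01 (SE 0.21) and Itgb7, the integrin chain that mast cell progenitors use to enter the gut, at 0.81 (SE 0.14), and among the lower was Csf2ra at -1.02 (SE 0.15).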
